A study of Mus musculus with 4 samples.

Results

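The cells described here are lung CD4 T cells in which at least 1 UMI (a molecule counted once by its tag) of S100a4 or Icos was read. S100a4, a calcium-binding protein, and Icos, a costimulatory receptor, are both raised in activated and memory T cells. Barcodes were kept with at least 250 genes, at most 15% mitochondrial UMIs and under 50% haemoglobin UMIs. A CD4 T cell then needed a UMI of Cd3e, Cd3d or Cd3g and of Cd4, and none of Cd8a, Cd8b1, Cd79a, Ms4a1, Csf3r, Cxcr2 or Trdc. Cells with Foxp3, or with both Il2ra and Ctla4, were set apart as regulatory T cells. The rule found 205 cells among 34755 deposited barcodes, of which 28168 passed the 3 quality limits. Placebo mice 1 and 2 gave 66 and 30 of these cells, and tamoxifen mice 1 and 2 gave 52 and 57. They were set against 682 CD4 T cells with no UMI of either gene and against 106 regulatory T cells from the same 4 lungs.

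All 4 animals were female FVB/NJ mice that carry MMTV-PyMT, a transgene in which the mouse mammary tumour virus promoter drives the polyoma middle T oncogene in mammary epithelium, so placebo and treated mice alike are a mammary tumour model. Pellets were implanted at 8 weeks of age and lungs were taken after 5 weeks, at 13 weeks. The pellet was a placebo in 2 mice and held 5 mg tamoxifen, released over 60 days, in the other 2. Whole lungs were perfused and digested, and a separate 10x Genomics 5′ library was made from each animal. The replicate is the mouse, and per-mouse values below run in the order placebo 1, placebo 2, tamoxifen 1, tamoxifen 2.

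A library held between 32646505 and 37285982 UMIs, and the S100a4/Icos-positive cells had median depths of 3551, 4456, 3544.5 and 3267 UMIs per cell. Any pair of libraries shared 77 to 128 deposited barcode sequences, but no barcode was called S100a4/Icos-positive in 2 libraries. Of the 205 cells, 19 held at least 10 UMIs of the markers of another lung cell type, and 17 held over 10000 UMIs. Those 2 kinds overlapped, numbered 10, 5, 5 and 5 cells per mouse together, and are called deep or mixed cells below. Deep cells carried 21.0%, 44.3%, 31.3% and 22.4% of the UMIs of their mouse. The largest, in placebo mouse 2, held 42901 UMIs, 1909 of them from Ccl5. Results were therefore also computed without these cells.

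CD4 T cells circulate through lymph nodes while naive, guided there by the homing receptor Ccr7 and kept in that state by the transcription factors Lef1 and Tcf7. After meeting antigen they lose those genes and gain receptors that draw them into tissue, such as Cxcr3, Ccr4 and Cxcr6, with adhesion and cytoskeletal genes. Effector cells are further split into helper programmes, among them Th1 (Tbx21, Cxcr3, Ifng), Th2 (Gata3, Ccr4, Il4) and Th17 (Il17a).

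The name effector and memory held for part of these cells only. Of the 205, 126 were positive by Icos alone (33, 21, 35 and 37 cells), 31 by S100a4 alone (12, 1, 10 and 8) and 48 by both (21, 8, 7 and 12). A list of effector and memory genes, without S100a4 and Icos, summed to 4347, 4339, 4553 and 2639 CPM (UMIs scaled to a fixed total per mouse and class) in the CD4 T cells that lacked both. It summed to 4895, 3981, 4270 and 5523 CPM in Icos-only cells, which overlapped them. In S100a4-only cells the sum was 18416, 21610, 17799 and 15449 CPM, and in cells with both genes 25169, 17687, 15322 and 17876 CPM. Every S100a4-containing class thus stood above every Icos-only or double-negative value, and its range of 15322 to 25169 CPM overlapped the 20569 to 29049 CPM of regulatory T cells. Without deep or mixed cells the sums were 4161 to 5567 CPM with Icos alone and 15322 to 24900 CPM in the classes with S100a4. For these reasons the cells are called here by their rule, S100a4/Icos-positive.

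**Figure D1:**
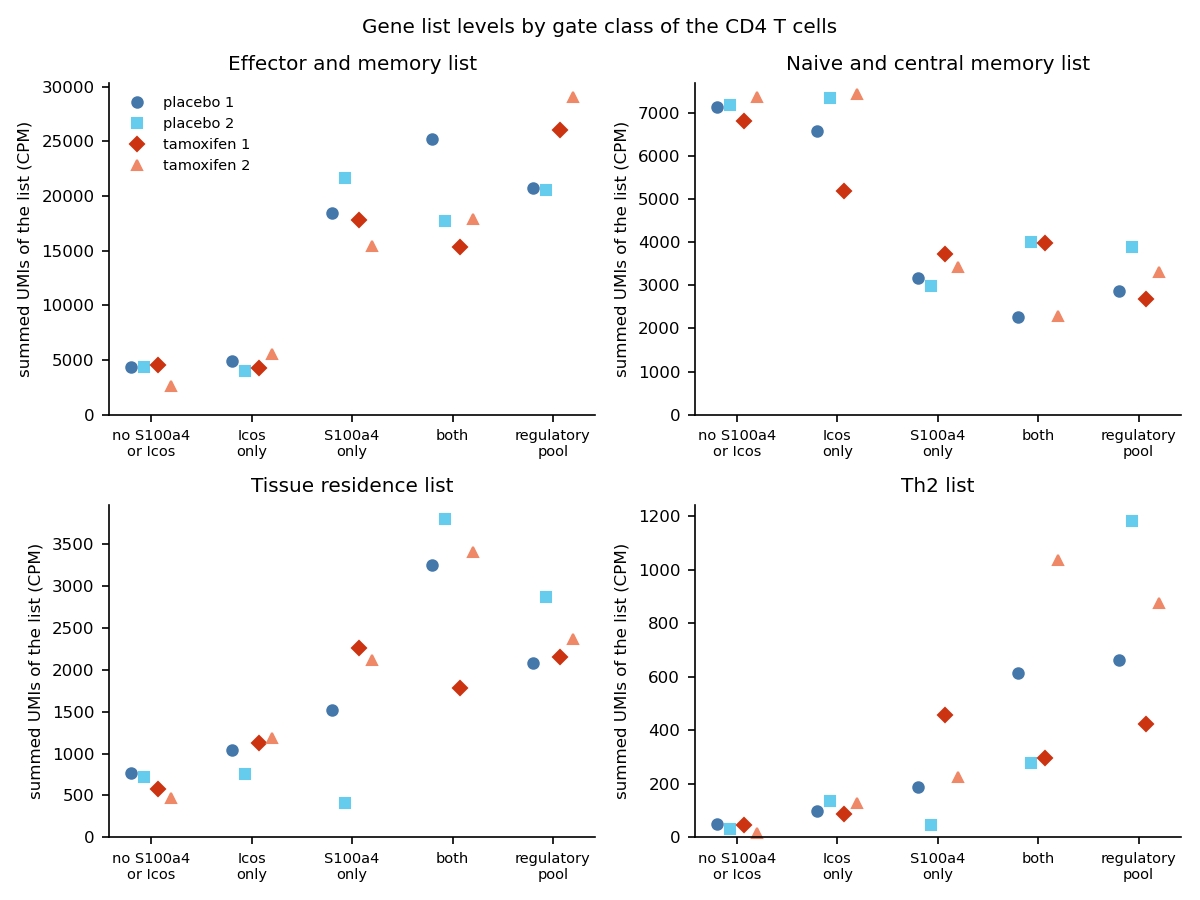
Summed CPM of 4 gene lists (effector and memory, naive and central memory, tissue residence, Th2) in CD4 T cells grouped by which of S100a4 and Icos was read, with 1 point per mouse. In the effector panel the Icos-only points lie between 3981 and 5523 CPM, beside the double-negative points, and those of both S100a4 classes at 15322 CPM or above.

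The naive list, which holds Ccr7, Lef1 and Tcf7, ran the other way. It summed to 6797 to 7360 CPM in double-negative cells and to 5174 to 7438 CPM in Icos-only cells, 2 ranges that overlap. It summed to 2976 to 3726 CPM with S100a4 alone and to 2253 to 3995 CPM with both genes. The tissue residence list was at 473 to 766 CPM in double-negative and 758 to 1186 CPM in Icos-only cells, which met at their edges and were each higher in the Icos-only cells of their own mouse. It was at 412 to 2264 CPM with S100a4 alone, lowest in the single cell of placebo mouse 2, and at 1787 to 3802 CPM with both genes. The Th2 list was at 16.0 to 48.7 CPM in double-negative cells and at 86.1 to 137 CPM in Icos-only cells, which did not overlap.

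The rule has a threshold of 1 UMI, and 107 of the 205 cells stood on it, with 26 at 2 UMIs and 72 at 3 or more. Over the 4 mice the effector list was at 4084 CPM just outside the threshold, 5116 CPM at 1 UMI, 9710 CPM at 2 and 19829 CPM at 3 or more. The naive list was at 7058, 6136, 5089 and 3252 CPM in the same order. The effector steps were not seen in every mouse: at 1 UMI placebo mouse 1 (4295 CPM) and tamoxifen mouse 1 (3954 CPM) lay below their own double-negative cells, and at 2 UMIs the 5 cells of placebo mouse 2 were at 2747 CPM, below its 8612 CPM at 1 UMI. In each mouse the level at 3 or more UMIs was the highest, at 14909 to 24292 CPM. Over all mice, cells with 1 UMI were closer to the cells just outside than to those with 3 or more. Medians of depth were 2994 UMIs per cell for double-negative, 3341.5 for Icos-only, 3334 for S100a4-only and 4605.5 for double-positive cells. Pooled over the mice, depth was thus alike in Icos-only and S100a4-only cells, lower in double-negative and higher in double-positive cells. It was not alike within the mice. S100a4-only medians were 4036.5, 21842 (a single cell), 2636.5 and 4117 UMIs, against 2749, 4187, 3613 and 3144 for Icos-only cells. In tamoxifen mouse 1 the double-positive median (3554) was also below that of Icos-only cells. The part of depth in these levels was not tested.

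UMIs were summed per mouse to ask which other genes set the S100a4/Icos-positive cells apart from the CD4 T cells with neither UMI. These cells were higher in 15 of 22 effector and memory genes tested and in 4 of 12 migration receptors (Ccr2, Ccr4, Cxcr3 and Cxcr6). They were lower in 9 of 15 naive genes and in 50 of 82 ribosomal protein genes. With the mouse as a block, edgeR's quasi-likelihood test called 243 of 4246 genes (5.72%), S100a4 and Icos aside, with 110 higher (2.59%) and 133 lower (3.13%). An unadjusted p under 0.05 was reached by 867 genes (20.4%). Without scaling by trimmed means (TMM) the split was 182 higher to 56 lower, and the median of all genes moved from 0.01 to 0.17 on the log2 scale. Without deep or mixed cells 368 of 3346 genes were called (11%), 179 higher (5.35%) and 189 lower (5.65%), among them 83 of the 110 and 117 of the 133. The counts fell when a mouse was left out. They were 8 genes without placebo mouse 1, 12 without tamoxifen mouse 2, 106 without placebo mouse 2 and 188 without tamoxifen mouse 1. Each of those fits also had fewer replicates, and the part of this in the fall was not tested. Thinning each cell to 1000 UMIs before the gate left 18, 5, 9 and 10 S100a4/Icos-positive cells. In the thinned cells 5 genes were called, all of the effector list and all higher: Crip1 (1.45), Itgb1 (2.32), Lgals1 (2.70), S100a10 (1.78) and Vim (2.15). The number of genes that this comparison tested after thinning is not given here, so these calls stand without their share. The interaction fit over the same 2 classes, whose count filter differs, tested 483 genes after thinning, against 5300 before it.

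The 2 parts of the rule did not contribute alike to these calls. Icos-only cells alone against the double-negative cells gave 3 called genes of 3510 (0.0855%), namely Samsn1, an adaptor of lymphocyte signalling, higher by 2.11 on the log2 scale, and Mgst1 (-3.40) and Lars2 (-0.60), both lower. None of 19 effector genes and none of 15 naive genes tested was called there, with medians of 0.23 and -0.29. S100a4-only cells gave 56 called genes of 2780 (2.01%). Mixed cells held 69.9%, 100%, 35.4% and 72.4% of the UMIs of S100a4-only cells, and placebo mouse 2 had 1 S100a4-only cell. The fit of S100a4-only against double-negative cells was not run without mixed cells. The Icos-only and S100a4-only fits are 2 separate fits, and the difference between these cells is described further below.

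Of the called genes, S100a4 and Icos aside, the receptors Ccr4 and Cxcr6 had the largest log2 differences. Ccr4, the receptor for Ccl17 and Ccl22 (mm10, chromosome 9: 114490316-114504916, minus strand), was at 109, 66.1, 65.5 and 117 CPM in S100a4/Icos-positive cells and at 0, 0, 2.74 and 2.71 CPM in double-negative cells. Those levels rest on 32, 12, 16 and 27 UMIs against 0, 0, 2 and 1, and no mouse overlapped the other group. The log2 difference was 5.54 (SE 0.49; edgeR adjusted p = 0.0013). Cxcr6, the receptor for Cxcl16 and a marker of tissue-resident T cells (chromosome 9: 123806475-123811760, plus strand), was at 187, 193, 123 and 165 CPM against 14.9, 16.9, 6.85 and 0 CPM. It was 16.9-fold higher, at 4.08 on the log2 scale (SE 0.38; edgeR adjusted p = 0.002). Ccr4 and Cxcr6 were each called in all 14 alternative settings that tested them. They fell under the count filter after thinning and in the separate fits of Icos-only and S100a4-only cells.

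Cxcr3, the Th1 receptor for interferon-induced chemokines (chromosome X: 101731535-101734269), was at 102, 88.1, 65.5 and 56.5 CPM against 5.60, 16.9, 4.11 and 0 CPM. The groups did not overlap, and the log2 difference was 3.68 (SE 0.45; edgeR adjusted p = 0.0055). Ccr2, the receptor for Ccl2, was at 109, 60.6, 77.8 and 109 CPM against 5.60, 13.5, 23.3 and 0 CPM, a log2 difference of 2.96 (edgeR adjusted p = 0.017). These 4 were the receptors called higher among 12 tested of 21 migration receptors, with a median of 0.28 for the 12 against 0.01 for all genes. Of the lymph node homing receptors, Ccr7 was not called. It had a difference of -0.79 (adjusted p = 0.13) with placebo mouse 2 in the opposite direction, at 1360.3 CPM against 1095 CPM.

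**Figure D2:**
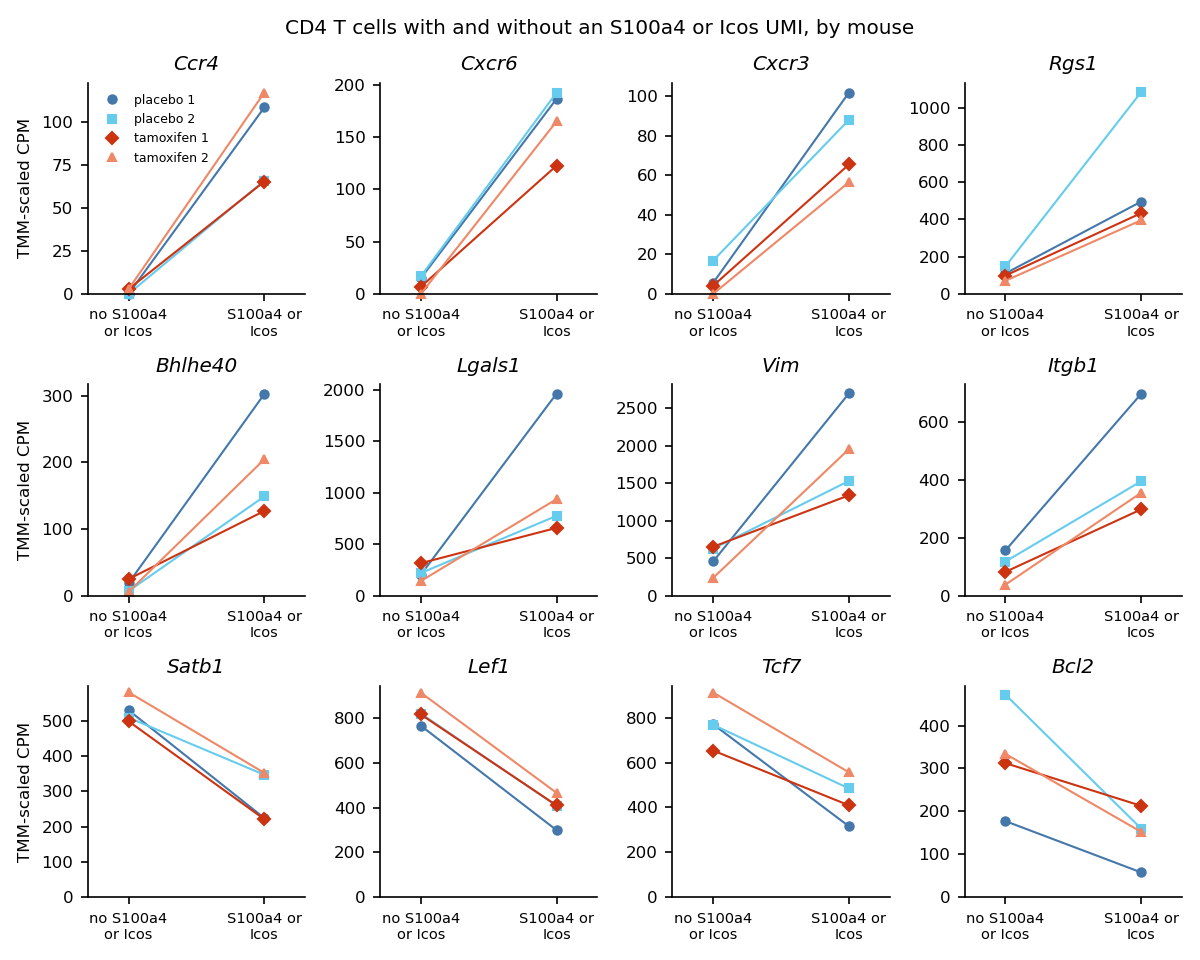
TMM-scaled CPM of 12 genes in each mouse, with a line joining the double-negative CD4 T cells to the S100a4/Icos-positive cells of that mouse. Ccr4, Cxcr6 and Cxcr3 rise from at most 16.9 CPM to at least 56.5 CPM in every mouse, and Satb1, Lef1 and Tcf7 fall in every mouse.

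The receptors were read in minorities of cells. Cxcr6 was read in 52 of 205 cells (25.4%, exact binomial 95% interval 19.6 to 31.9%), in 1.17% of double-negative cells and in 0.156% of 1926 B cells, which should lack it. Ccr4 was read in 43 cells (21.0%), in 0.293% of double-negative cells and in no B cell. Median depths were 3569, 2994 and 3093.5 UMIs in the 3 sets. Thinned to 1000 UMIs per cell, the shares were 12.3% against 0.608% for Cxcr6 and 9.36% against 0.152% for Ccr4. Among cells with Cxcr6 the homing receptor Ccr7 was read in 11 of 52, against 73.9% of the 153 others. Cxcr6 cells often held Rgs1 (36 of 52) and Rora (35 of 52). Ccr4 was read in 12 of the 36 Cxcr3 cells (33.3%) and in 18.3% of the 169 others.

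The regions just upstream of 3 called genes are shown because Ccr4 and Cxcr6 were called in every alternative that tested them and S100a11 holds 2 matches to the AP-1 motif. They are the 250 bases before the start in RefSeq's GRCm38.p6 table, written 5′ to 3′ on the gene's strand. For Ccr4 the start in that table lies inside the gene span given above from GENCODE, so the 2 annotations place it differently, and the region shown is not upstream of the longest GENCODE transcript. Capitals mark TGANTCA, the AP-1 motif, in Ccr4 (chr9:114496545-114496794, minus strand) and in S100a11 (chr3:93520246-93520495, plus strand). In Cxcr6 (chr9:123806227-123806476, plus strand) they mark ACCACA, the other strand of the Runx motif TGTGGT.
Ccr4: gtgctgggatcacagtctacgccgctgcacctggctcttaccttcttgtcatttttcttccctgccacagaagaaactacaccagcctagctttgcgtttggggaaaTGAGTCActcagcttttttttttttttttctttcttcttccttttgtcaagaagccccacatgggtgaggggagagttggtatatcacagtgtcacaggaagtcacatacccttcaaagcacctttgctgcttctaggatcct
S100a11: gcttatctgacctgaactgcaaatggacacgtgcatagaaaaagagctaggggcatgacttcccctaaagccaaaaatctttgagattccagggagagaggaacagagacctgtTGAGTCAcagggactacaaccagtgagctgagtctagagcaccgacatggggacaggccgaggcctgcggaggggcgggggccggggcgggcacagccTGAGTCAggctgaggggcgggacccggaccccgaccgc
Cxcr6: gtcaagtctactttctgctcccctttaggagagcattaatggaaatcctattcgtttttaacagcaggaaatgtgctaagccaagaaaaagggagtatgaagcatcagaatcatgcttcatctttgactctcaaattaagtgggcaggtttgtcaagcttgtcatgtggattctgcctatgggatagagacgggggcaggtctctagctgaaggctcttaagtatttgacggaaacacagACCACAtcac
In Ccr4 the match lies 143 to 137 bases before the start, in S100a11 136 to 130 and 38 to 32 bases before it, and in Cxcr6 10 to 5 bases before it. Cxcr3 held ACCACA at 110 to 105 bases before its start, and S100a6, whose region is not printed, held 3 matches to TGTGGT on either strand, starting 217, 145 and 79 bases before its start. Of the called genes with a matching symbol, TGANTCA on either strand was in 9 of 72 upstream regions of higher genes (12.5%) and in 4 of 100 of lower genes (4%). It was in 3.59% of the 3401 tested genes with a region and in 6.87% of all regions in the table. TGTGGT was in 8.33% of higher, 7% of lower and 10.3% of tested genes. GGGNNTTCC, an NF-kB motif, was in 9.72%, 5% and 6.41%, and ATCAAAG, the motif of Lef1 and Tcf7, in 2.78%, 1% and 2.09%. Each motif was searched on both strands and counted apart from the others, whether or not matches overlapped, and a match is a description of these letters only.

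Of the effector and memory list, 15 of 22 tested genes were called higher and none lower. The median log2 difference was 1.43, against 0.01 for all genes tested. When deep or mixed cells were left out 19 of 20 were called, with a median of 1.93. Without placebo mouse 1 and without tamoxifen mouse 2 only 1 (Cxcr6) and 2 (Cxcr6 and Itgb1) of the 22 were called, though all 22 were positive in each. Lgals1, the secreted lectin galectin-1, was at 1967, 777, 659 and 939 CPM against 203, 219, 315 and 141 CPM (2.22; edgeR adjusted p = 0.0083). Vim, the intermediate filament vimentin, was at 2701, 1531, 1339 and 1957 CPM against 455, 627, 652 and 236 CPM (1.97; adjusted p = 0.011). Neither overlapped between the groups.

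Other members of the list include adhesion molecules and S100 proteins. Itgb1, the beta-1 integrin chain, was at 699.8, 397, 299 and 357 CPM against 157, 118, 82.2 and 38.0 CPM (2.18; edgeR adjusted p = 0.003). Cd44, the hyaluronan receptor that marks antigen-experienced T cells, was at 166, 93.6, 123 and 148 CPM against 24.3, 77.5, 34.3 and 24.4 CPM (1.86; adjusted p = 0.024). Both were higher in all 4 mice. S100a11 was at 1250.1, 1019, 467 and 822 CPM against 425, 347, 377 and 214 CPM (1.34; edgeR adjusted p = 0.015). S100a6 was at 1039, 1002, 278 and 683 CPM against 237, 115, 167 and 10.9 CPM (2.57; adjusted p = 0.036). The smaller values of both were in tamoxifen mouse 1. In Icos-only cells against double-negative cells the S100a6 difference was -0.05 and that of Crip1, a small LIM protein, was -0.37, against 1.06 for Crip1 in all cells. Lgals3, or galectin-3, had a difference of 1.48 that was not called (adjusted p = 0.23), and 4.00 without deep or mixed cells (adjusted p = 7.9e-07).

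Of 15 naive genes tested, 9 were called lower and none higher, with a median of -0.83, and 11 of 14 without deep or mixed cells. Lef1 was the 1 naive gene called without placebo mouse 1, and likewise without tamoxifen mouse 2. Lef1, a partner of beta-catenin that maintains the naive state, was at 299, 408, 409 and 465 CPM against 765, 819, 815 and 912 CPM (-1.08, SE 0.12; edgeR adjusted p = 0.004). Tcf7, its relative, was at 316, 485, 409 and 557 CPM against 771, 768, 654 and 912 CPM (-0.83; adjusted p = 0.012). The genome organiser Satb1 (-0.92) and the repressor Bach2 (-1.16), which restrains effector genes, were also called lower. S1pr1, the receptor for exit from tissue, had a difference of -0.64 that did not pass (adjusted p = 0.069). The integrin chain Itga6 was at 64.5, 88.1, 73.7 and 95.7 CPM against 194, 199, 171 and 190.1 CPM (-1.24; adjusted p = 0.0078), without overlap.

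Cytokine receptors and survival genes split. Il2rb, the beta chain of the interleukin 2 and 15 receptors, was at 119, 226, 115 and 204 CPM against 39.2, 94.4, 26.0 and 8.14 CPM (2.10; edgeR adjusted p = 0.02). Il7r, which keeps resting T cells alive, was lower by -0.66 (adjusted p = 0.036), as was Il4ra by -0.82 (adjusted p = 0.043). They were the 3 called of 11 tested, whose median was -0.37. Of 7 survival genes, 1 was called each way. Bcl2a1b was at 183, 138, 143 and 278 CPM against 22.4, 37.1, 31.5 and 2.71 CPM (2.92; edgeR adjusted p = 0.011), and its near-identical paralogues make its counts uncertain. Bcl2 was at 57.7, 159.7, 213 and 152 CPM against 177, 472, 312 and 334 CPM (-1.17; adjusted p = 0.013).

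Of 10 tested tissue residence genes, 4 were called higher and none lower, with a median of 1.17, and 7 of 10 without deep or mixed cells. Bhlhe40, a transcription factor needed for cytokine output of helper cells, was at 302, 149, 127 and 204 CPM against 18.7, 6.74, 24.7 and 5.43 CPM (3.62; edgeR adjusted p = 0.003). Rgs1, a brake on chemokine receptor signalling, was at 496, 1085, 434 and 396 CPM against 110.1, 148, 98.6 and 70.6 CPM (2.41, SE 0.16; adjusted p = 0.00057). One cell of placebo mouse 2 held 74.1% of that mouse's Rgs1 UMIs. Cxcr6 and Ramp3, a receptor accessory protein (1.48; adjusted p = 0.017), were the other two. Itgae, the integrin chain of epithelial residence, was read in 2 of 205 cells against 15.1% of regulatory T cells. Zfp683, the residence factor Hobit, was read in 3.

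**Figure D3:**
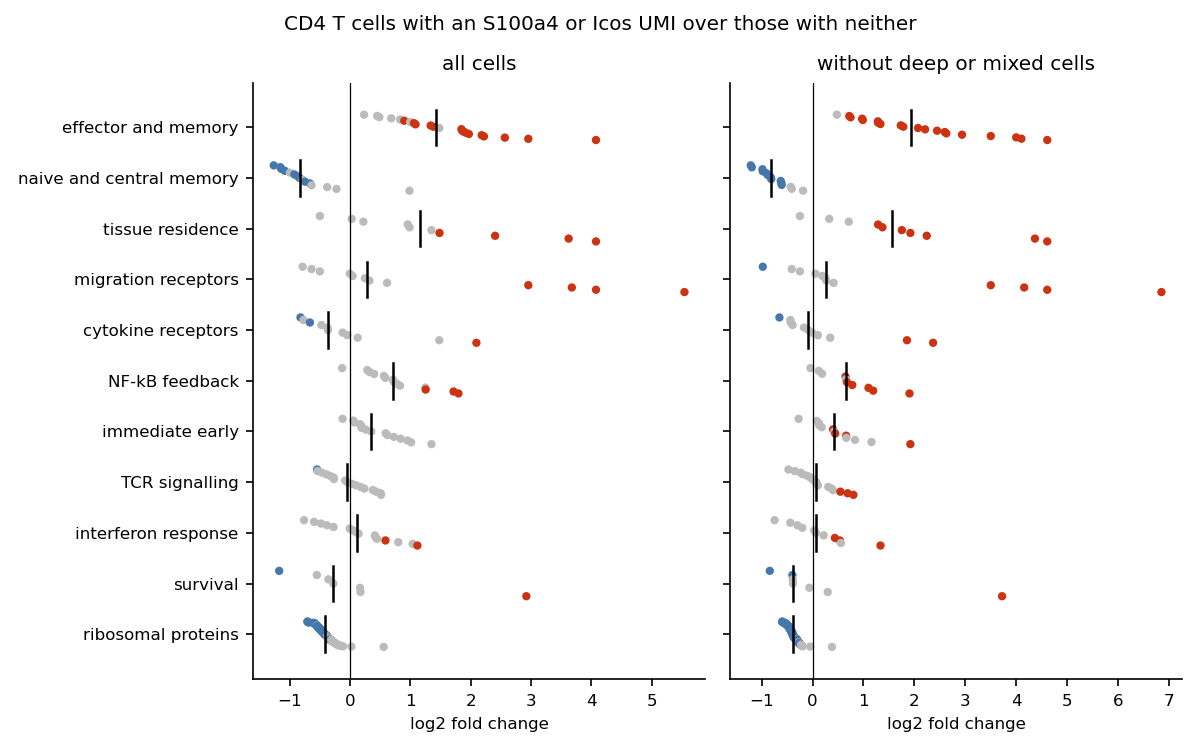
Log2 differences between S100a4/Icos-positive and double-negative CD4 T cells, with 1 point per gene, grouped by list, red where called higher, blue where called lower and grey where not called, and a bar at each list's median. The left panel uses all cells and the right panel leaves out deep or mixed cells; the effector list lies above 0 in both, with medians of 1.43 and 1.93, and the ribosomal proteins below, at -0.42 and -0.39.

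No single helper programme covered these cells. Of the Th1 list, Cxcr3 was the 1 gene called of 5 tested (3 of 5 without deep or mixed cells), and of the Th2 list Ccr4 of 2 tested (2 of 2, with Gata3). Rora, a factor of Th17 and innate-like cells, was at 245, 116, 115 and 265 CPM against 48.5, 47.2, 23.3 and 5.43 CPM (2.56; edgeR adjusted p = 0.015), 1 of 3 tested of its list. Of the follicular helper list none of 3 was called. Gata3, the Th2 factor, was at 122, 60.6, 57.3 and 91.3 CPM against 46.7, 23.6, 45.2 and 13.6 CPM (1.31; adjusted p = 0.061, and 0.0022 without deep or mixed cells).

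Pairs of helper genes were counted cell by cell. Tbx21, the Th1 factor T-bet, was read in 23 of 205 cells (11.2%), against 1.17% of double-negative cells and 0.571% of B cells. It was read in 15 of the 36 cells with Cxcr3 (41.7%) and in 4.73% of the 169 others. Il1rl1, the interleukin 33 receptor of Th2 cells, was read in 14 cells, 10 of which held Ccr4. Of the 162 cells without Ccr4, 2.47% held it. Pairs across programmes were also read together: Gata3 was read in 8 of the 23 Tbx21 cells (34.8%) and in 23.6% of the 182 others. Deeper cells show more genes of any kind, and the part of depth in these pairs was not tested. Gata3 was read in 51 cells (24.9%), against 8.80% of double-negative cells and 0.0519% of B cells, and in 17 of the 43 Ccr4 cells. Cxcr5, the follicular receptor, was read in 1 cell.

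Cytokine transcripts were sparse, and most were read in under 12% of cells. Ifng was read in 12 cells (5.85%), against 0.147% of double-negative cells, and 9 of the 12 held Cxcr3. Il2, the T cell growth factor, was read in 24 cells (11.7% against 0.440%), and in 1.97% against 0.152% after thinning. Il4 was read in 11 cells (5.37% against 0.880%). No B cell held Ifng, Il2 or Il4. Tnfsf11, encoding RANKL, was read in 21 cells (10.2% against 0.587%, and 18.9% of regulatory T cells). Il17a was read in 1 cell with 32 UMIs, and Il5 in 1 cell. Il13, Il21, Il22 and Gzma were read in none, which allows a share of cells with a UMI of up to 1.46%. Cd40lg, which licenses B cells and dendritic cells, was read in 94 cells (45.9% against 30.5%), and its level differed by 0.45 on the log2 scale (edgeR adjusted p = 0.25), or 0.75 without deep or mixed cells (adjusted p = 0.0055).

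Ccl5, a chemokine of memory and cytotoxic T cells, shows what a single cell can do to a sum. It was at 1118, 10624, 471 and 78.3 CPM against 136, 199, 61.7 and 0 CPM (3.99; edgeR adjusted p = 0.007), but 1 cell held 72.0%, 99.0%, 38.3% and 77.8% of its UMIs in the 4 mice. It was read in 19 of 205 cells (9.27%), 11 of which held Cxcr3. In Icos-only cells alone the Ccl5 difference was -0.89. Nkg7, a granule protein, was read in 26 cells (12.7% against 1.91%) and Gzmb in 1.

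Among activation genes, 3 of 14 NF-kB feedback genes were called higher (Traf1, Cd83 and Icam1; median 0.72), and 6 of 10 without deep or mixed cells. None of 15 immediate early genes was called, with a median of 0.35, and 4 of 13 without those cells. Of 17 genes of T cell receptor signalling, Cd247, the zeta chain, was the 1 called, lower by -0.55 (edgeR adjusted p = 0.039). Without deep or mixed cells Cd247 was not called and Cd5, Cd6 and Ptpn22 were, all higher. Of 16 interferon response genes Ly6a and Ly6e were called higher. Of 7 proliferation genes Mcm6 and Hmgb2 were called higher, and Mki67 was read in 9 cells (4.39% against 0.733%). The proliferation list summed to 1888, 2481, 3341 and 1127 CPM against 1073, 895, 886 and 816 CPM in double-negative cells. In tamoxifen mouse 1, 1 cell held 491 of the 838 UMIs. Without deep or mixed cells in either class the sums were 1521, 1195, 1388 and 1190 CPM against 1158, 939, 931 and 825 CPM. Whether Mcm6 and Hmgb2 were called without those cells is not given here. Of checkpoint and costimulatory genes, Cd226 was higher and Cd27 lower among 6 tested. Pdcd1, or PD-1, was read in 20 cells (9.76% against 0.440%), 11 of which held Cxcr6. None of 5 oestrogen receptor and coregulator genes and none of 4 cholesterol synthesis genes was called.

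Ribosomal protein genes were lower together, 50 of 82 called and none higher, with a median of -0.42. Without TMM scaling the median was -0.25 with 25 called lower, and without deep or mixed cells it was -0.39 with 70 of 81 called. Genes of other cell types also differed between the groups, MHC class II genes in 1 direction in all 4 mice, and haemoglobin, epithelial and macrophage genes in different directions in different mice. Haemoglobin summed to 5119.9, 2286, 785 and 15712 CPM in S100a4/Icos-positive cells and to 21369, 8997, 9533 and 12736 CPM in double-negative cells, with tamoxifen mouse 2 in the opposite direction to the other three. MHC class II genes summed to 1380, 1376, 2121 and 370 CPM against 247, 55.2, 1482 and 32.0 CPM, higher in all 4 mice. In each mouse 1 S100a4/Icos-positive cell held most of these UMIs, with 275 of 416, 222 of 275, 505 of 532 and 84 of 91. Without deep or mixed cells the S100a4/Icos-positive sums were 1325, 9.56, 88.6 and 31.9 CPM, with no double-negative sums given beside them. Epithelial markers summed to 504, 12361, 187 and 692 CPM against 28708, 3333, 1198 and 5766 CPM, higher in placebo mouse 2 and lower in the other mice, with 2425 of 2471 UMIs of placebo mouse 2 in 1 cell. Macrophage and monocyte markers summed to 1808, 965, 953 and 3901 CPM against 683, 2200, 327 and 70.9 CPM, lower in placebo mouse 2 and higher in the others, with Adgre1 at 0. B cell markers summed to between 24.4 and 76.3 CPM, with 5 of 7 genes at 0. Without deep or mixed cells the effector, naive and residence lists held more called genes, as given above. The lists of haemoglobin and MHC class II genes were not used to choose those cells.

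T cell receptor beta variable segments were read in 187 of the 205 cells, with 14 of 35 annotated segments present. Only 16 of the 35 were read in any kept cell. Trbv24 was read in 54 cells (28.9% of cells with a segment, against 19.0% of such double-negative cells), Trbv1 in 47 (25.1% against 16.6%) and Trbv3 in 35 (18.7% against 16.6%). Trbv4 was at 17.0, 0, 0 and 0 CPM against 41.1, 40.4, 37.0 and 40.7 CPM, and was called lower (-2.89; edgeR adjusted p = 0.049). Reads of near-identical segments may be divided between them, and clones were not resolved here.

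The next comparison was with the 106 regulatory T cells. It took all S100a4/Icos-positive cells, with the 126 Icos-only cells whose effector and naive list levels overlapped those of double-negative cells. The S100a4/Icos-positive cells were lower in 3 of 7 tested genes of the regulatory list (Ikzf2, Tnfrsf4 and Tigit), with a list median of -1.42. They were higher in 4 of 14 naive genes and in 6 of 81 ribosomal protein genes (median 0.32). With the mouse as a block, edgeR called 37 of 3385 genes (1.09%), 14 higher (0.414%) and 23 lower (0.679%), while DESeq2 called 30 higher and 24 lower. Foxp3, Il2ra and Ctla4, which divide the groups by rule, are left out of these counts. Ikzf2, the regulatory T cell factor Helios, was at 89.0, 61.9, 56.0 and 63.8 CPM against 446, 421, 481 and 521 CPM (-2.78; adjusted p = 0.0012), and was called in 13 of 13 alternatives. Areg, a tissue repair growth factor, was at 0, 18.6, 9.33 and 0 CPM against 219, 461, 107 and 52.1 CPM (-4.86; edgeR adjusted p = 0.0053). Klrg1 was at 50.3, 24.8, 0 and 29.5 CPM against 329, 320.5, 169 and 407 CPM (-3.57; adjusted p = 0.0088). Tnfrsf4, the receptor OX40, was at 30.9, 99.1, 168 and 216 CPM against 666, 861, 512 and 1116 CPM (-2.74; adjusted p = 0.019). None of the 4 overlapped between the groups.

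The 14 naive genes had a median of 0.67. Satb1 was at 255, 390.1, 252 and 398 CPM against 43.9, 120.2, 116 and 115 CPM (1.71; edgeR adjusted p = 0.03). Tcf7 was at 359.7, 545, 466 and 629 CPM against 154, 280.4, 107 and 198 CPM (1.51; adjusted p = 0.028). Both were higher in all 4 mice. Of 24 effector genes, 5 were called lower (S100a10, Vim, Capg, Hopx and Klrg1) and none higher, with a median of -0.82. Of 13 migration receptors tested none was called in either direction, with a median of 0.17. Cd40lg was at 275, 192, 191 and 309 CPM against 58.5, 140.2, 66.8 and 156 CPM, a difference of 1.33 that did not pass (adjusted p = 0.093). With deep or mixed cells left out, 121 of 1659 genes were called (7.29%), 62 higher (3.74%) and 59 lower (3.56%), among them 11 of the 14 and 18 of the 23. Ribosomal protein genes made up 41 of those 62 higher genes. Without placebo mouse 2 the 1 call was Ikzf2, without tamoxifen mouse 2 the 4 were Ikzf2, Areg, Hopx and the chemokine gene Cxcl2, and without tamoxifen mouse 1 there were 11.

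Within the S100a4/Icos-positive cells, those with S100a4 alone were compared with those with Icos alone. Naive genes were lower and effector genes higher in the S100a4-only cells. With the mouse as a block, edgeR called 73 of 1098 genes (6.65%), 37 higher (3.37%) and 36 lower (3.28%). The split was 49 to 16 without TMM scaling and 57 to 27 with DESeq2. Placebo mouse 2 had 1 S100a4-only cell. Lef1 was at 228, 236, 158 and 228 CPM against 872, 1046, 672 and 1005 CPM (-2.06; adjusted p = 0.013). Satb1 was at 91.1, 78.6, 119 and 177 CPM against 679, 859, 378 and 696 CPM (-2.36; edgeR adjusted p = 0.017). Ccr7 was at 478, 314, 357 and 177 CPM against 1329, 1140.1, 944 and 1491 CPM (-1.92; adjusted p = 0.027). No mouse overlapped the other group for these 3. Vim was at 6738, 2201, 3883 and 5996 CPM against 900.1, 781, 1209 and 906 CPM (2.22; adjusted p = 0.013). Ahnak, a scaffold protein of the cell membrane, was at 1069.9, 865, 911 and 1138 CPM against 305, 125, 196 and 166 CPM (2.34), again without overlap.

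Of 15 effector genes 9 were called higher in S100a4-only cells (median 1.76), of 11 naive genes 3 lower (-1.34) and of 79 ribosomal protein genes 30 lower (-0.52, or -0.43 without TMM scaling). The higher genes with the largest differences included Trf, Apoe, Bgn and Igfbp7, which other lung cells make. Mixed cells held 69.9%, 100%, 35.4% and 72.4% of the UMIs of the S100a4-only cells and 14.1%, 19.4%, 7.16% and 1.94% of those of the Icos-only cells. In the 3 mice that had both classes once deep or mixed cells were left out, 102 of 1215 genes were called (8.4%), 38 higher (3.13%) and 64 lower (5.27%). Among them were 33 of the 36 lower genes but 8 of the 37 higher ones, of which 17 were tested. S100a6, at 2413, 8095, 1585 and 2024 CPM against 305, 141, 30.2 and 209.8 CPM, was called in both (4.27, adjusted p = 0.013, and 3.41, adjusted p = 0.0016, by edgeR). Without tamoxifen mouse 2 no gene was called and without placebo mouse 1 the 5 calls were Trf, Apoe, Anxa1, Cst3 and S100a6, all higher.

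The tamoxifen comparison asked whether the pellet changed the number or the content of these cells. They made up 22.4% of CD4 T cells in placebo mouse 1 (66 of 294), 22.4% in placebo mouse 2 (30 of 134), 15.6% in tamoxifen mouse 1 (52 of 334) and 24.7% in tamoxifen mouse 2 (57 of 231). The exact binomial 95% intervals ran from 17.8 to 27.7%, 15.6 to 30.4%, 11.9 to 19.9% and 19.3 to 30.8%. The tamoxifen mice stood on either side of both placebo mice. The difference of the means was -2.30 percentage points (exact permutation test, two-sided p = 1.0), and 0.333 is the smallest p that 2 mice against 2 allow. Without tamoxifen mouse 1 the difference was 2.26 points.

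Of all kept lung cells they were 0.876%, 0.465%, 0.756% and 0.780%, a difference of 0.097 percentage points (exact permutation test, two-sided p = 1.0). The lowest value was in placebo mouse 2, and without that mouse the difference was -0.109 points. Of kept cells without neutrophils they were 1.48%, 1.51%, 1.34% and 1.67%, a difference of 0.011 points, and placebo mouse 2 was then not the lowest. With at least 2 UMIs of S100a4 and Icos required, the shares of CD4 T cells were 12.9%, 9.70%, 6.29% and 11.3%. Counted over cells thinned to 1000 UMIs they were 15.1%, 10.9%, 6.98% and 9.90%, from 18, 5, 9 and 10 cells. After thinning both tamoxifen mice stood below both placebo mice, with a difference of -4.56 percentage points against -2.30. Placebo mouse 1 was highest and tamoxifen mouse 1 lowest both after thinning and with at least 2 UMIs required. Cells with S100a4 were 11.2%, 6.72%, 5.09% and 8.66% of CD4 T cells, and cells with Icos 18.4%, 21.6%, 12.6% and 21.2%. A digest of whole lung counts the cells that were recovered, not those in the lung.

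**Figure D4:**
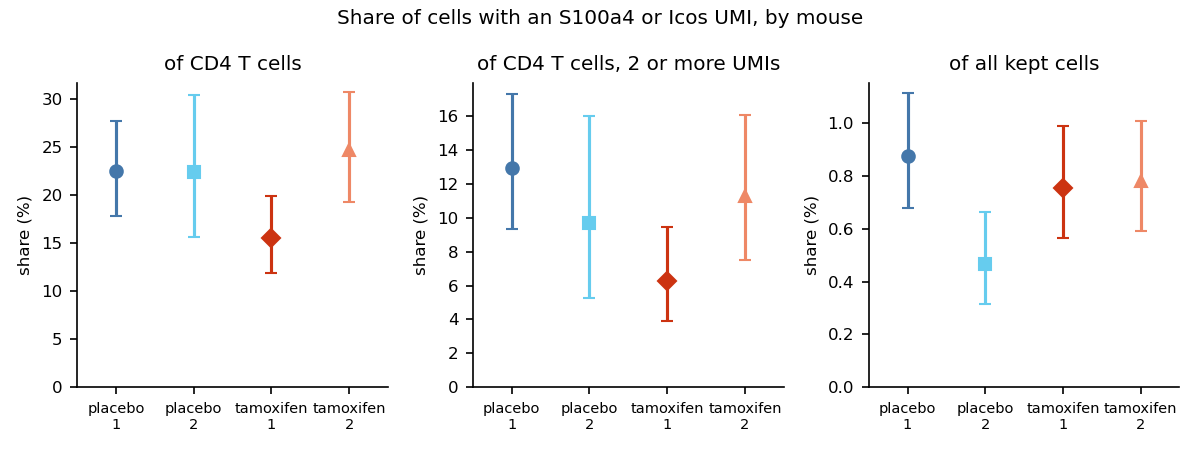
Share of S100a4/Icos-positive cells in each mouse, with exact binomial 95% intervals for counting error: of CD4 T cells, of CD4 T cells with at least 2 UMIs of the 2 genes required, and of all kept lung cells. The tamoxifen mice, at 15.6% and 24.7% of CD4 T cells, stand on either side of the placebo mice, both at 22.4%.

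No gene was called between tamoxifen and placebo within the S100a4/Icos-positive cells. In edgeR's test none of 3800 genes passed (0.0%), 180 had an unadjusted p under 0.05 (4.74%), and DESeq2 called 10 (0.263%), all lower, 9 of them among the 10 genes with the smallest p in edgeR. With all deep or mixed cells left out, edgeR called none of 2812 (0.0%), with 89 at an unadjusted p under 0.05 (3.17%). In simulated counts of this size 62.7% of genes changed by 4-fold were recovered and 4.41% of those changed by 2-fold. The simulation gave every gene the same spread between mice, without single cells that hold most of a gene's UMIs. Recovery in the real counts may therefore be lower, and changes near 2-fold were mostly not detectable. The count was 141 without placebo mouse 1 and 80 without placebo mouse 2, 0 without tamoxifen mouse 1 and 11 without tamoxifen mouse 2.

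The genes with the smallest p included secreted proteins of stromal cells, and 1 cell often held most of the UMIs of a placebo mouse. Serping1, a complement inhibitor, was at 439, 743, 4.44 and 13.9 CPM (-5.93; edgeR adjusted p = 0.12), with 48 of 120 UMIs of placebo mouse 1 and 126 of 126 of placebo mouse 2 in 1 cell each. C3, the central complement protein, had 31 of 57 and 83 of 84 UMIs in 1 cell each (adjusted p = 0.33 by edgeR). Igfbp5, a binding protein of insulin-like growth factors, was at 388, 1126, 0 and 13.9 CPM, with 106 of 106 and 191 of 191 UMIs in 1 cell each. Igfbp6 had 56 of 66 and 103 of 111, Slpi 50 of 54 and 111 of 116, and Gpc3 22 of 30 and 78 of 78. Of the 10 genes with the smallest p, Cst3 was the 1 still tested without deep or mixed cells, at -0.93 (edgeR adjusted p = 1).

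**Figure D5:**
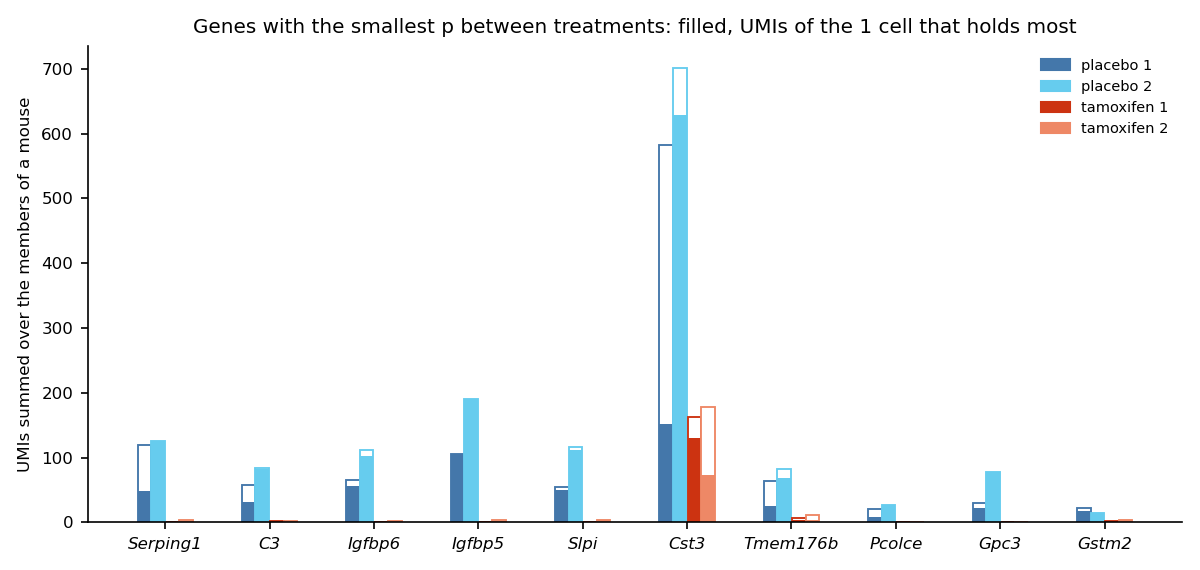
UMIs in each mouse of the 10 genes with the smallest p between tamoxifen and placebo (outline), and the UMIs of the single cell that held the most (filled). For Serping1 and Igfbp5 the filled part equals the outline in placebo mouse 2, at 126 and 191 UMIs.

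Genes that set these cells apart from double-negative CD4 T cells did not pass between treatments. Cxcr6 was at 201, 206, 133 and 176 CPM, a difference of -0.40 (SE 0.28). Cxcr3 was at 109.8, 94.3, 71.1 and 60.1 CPM, with both tamoxifen mice below both placebo mice (-0.64, SE 0.31). S100a6 was at 1119.6, 1073, 302 and 726 CPM (-1.09, SE 0.41) and Lgals1 at 2118, 831, 715 and 999 CPM (-0.79, SE 0.44). The edgeR adjusted p was 0.99 for each of these 4.

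By lists, the effector genes had a median difference of -0.41, with 5 of 23 positive, and the naive genes one of 0.18, with 11 of 15 positive, against 0.00 for all genes. Of the ribosomal protein genes 76 of 81 were positive, with a median of 0.15. None in these lists was called. Tamoxifen binds the oestrogen receptors and its metabolites bind enzymes of sterol synthesis. None of 5 tested oestrogen receptor and coregulator genes was called, and none of 3 cholesterol synthesis genes. Esr1, the main oestrogen receptor, was read in 1 of 205 cells (0.488%), in 1.03% of double-negative cells and in 1.14% of B cells, while Esr2, Pgr and Gper1 were read in none. The coregulators Nrip1 and Ncor1 were read in 69 and 122 cells.

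Whether tamoxifen acted differently on S100a4/Icos-positive and double-negative CD4 T cells was tested as an interaction. None of 5300 genes was called by edgeR (0.0%), 122 had an unadjusted p under 0.05 (2.3%), and DESeq2 called 1 (0.0189%), the actin-binding gene Tmsb4x (-0.49). The smallest p was for the surfactant gene Sftpc (edgeR adjusted p = 0.32), of which 1 cell of placebo mouse 2 held 2028 of that mouse's 2032 UMIs. In simulated counts drawn in the same way, with the same spread for every gene, 21.2% of 4-fold interactions were recovered. This test could thus miss most differences of that size. The labels give no litter, day or batch for the mice, and fewer cells of a class and less RNA per cell cannot be told apart in the summed counts.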

How the data were processed

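Cells of 4 whole lungs were measured, with 1 library of 10x Genomics 5′ gene expression per mouse. The authors deposited raw UMI counts per gene and barcode. Per the file headers the matrices came from Cell Ranger 5.0.0, whereas version 8.0.1 and the build mm10 stand in the submitters' processing notes. Which version made them was not settled. Depth was between 32646505 and 37285982 UMIs per library.

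The gate is given in the report. Doublets were not removed: Scrublet in scanpy 1.11.5 scored 1 of the 205 cells above 0.25, and deep or mixed cells were left out as an alternative. UMIs were summed per mouse and class. Genes passing filterByExpr were tested with edgeR 4.0.16 (R 4.3.3) by quasi-likelihood with TMM scaling and Benjamini-Hochberg adjustment at 0.05. CPM are TMM-scaled within each comparison, so they differ between comparisons; list sums are unscaled CPM. DESeq2 1.42.0 was an alternative. The scripts were tested on simulated data. Cells are not replicates, and p-values measure the spread between the mice. Intervals and limits on zero counts cover counting error only. The genes named were, per comparison, the 10 called with the largest difference in each direction and at least 30 CPM in the higher set, or the 10 with the smallest p where fewer were called. Genes of the lists were named as list members, and the few others (Mgst1, Lars2, Cxcl2 and Tmsb4x among them) after their values were seen. The members and the gene lists were chosen with earlier results of these data known. Coordinates of genes are from GENCODE vM21, and upstream regions from RefSeq's GRCm38.p6 table, which held 27025 symbols, the first entry being used for the 4163 symbols with several.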

Additional observations from a re-analysis of the deposited data

How the results depend on the processing

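Between tamoxifen and placebo, where no gene was called, DESeq2 called 10 genes, no filter on low counts 194, cells without UMIs of another lineage 6, equal numbers of cells per mouse 13, and leaving out each mouse in turn 0 to 141. A block for the replicate number called 0, and same-numbered mice deviated in opposite directions (correlation -0.28 over 3807 genes); the crossed pairing called 70. Of the 243 genes against double-negative cells, the count was 667 with no filter, 8 to 188 with a mouse left out, 5 after thinning, 395 without mixed cells, 368 without deep or mixed cells, 420 with at least 2 UMIs required, 56 with S100a4-only and 3 with Icos-only cells. Against regulatory T cells, with 37 of 3385 genes called, the count was 262 of 14557 with no filter and 0 of 124 after thinning. It was 1 to 45 with a mouse left out. Without cells over 10000 UMIs it was 128 of 1808, and without deep or mixed cells 121 of 1659. DESeq2 called 54 there, 30 higher and 24 lower. Between S100a4-only and Icos-only cells, with 73 of 1098 called, it was 425 of 13084 with no filter and 0 of 93 after thinning. It was 0 to 85 with a mouse left out, and 126 without the mouse block. DESeq2 called 84, 57 higher and 27 lower. The interaction gave 1 with DESeq2, 70 with no filter, 0 to 31 with a mouse left out, 2 after thinning, 6 without mixed and 1 without deep or mixed cells. Without the block for the mouse the counts against double-negative and regulatory T cells were 233 and 38. The number of genes tested changed with the setting, so a count is not a share of genes tested. The cause of these changes was not tested.

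The difference in the share of CD4 T cells was -6.85 to 2.26 points with a mouse left out, 2.26 without tamoxifen mouse 1 and -4.56 after thinning. The difference in the share of kept cells was -0.109 to 0.303 points with a mouse left out, -0.109 without placebo mouse 2, -0.030 after thinning and -0.023 with at least 2 UMIs. Single genes that turned sign against double-negative cells were, with Icos-only cells, Ccl5 (-0.89), S100a6 (-0.047), Lgals3 (-0.15) and Crip1 (-0.37), and Hba-a1 in cells with under 1% haemoglobin (0.58). Rpl8 turned between S100a4-only and Icos-only cells after thinning (0.082). Between treatments Cxcr6 was 0.043 with at least 2 UMIs, and Lgals1 was 0.049 without placebo mouse 1, in a range of -1.30 to 0.049 with a mouse left out. No other gene that was followed through every alternative turned in direction. The alternatives that left out mixed cells, deep cells or both, and the crossed pairing, were chosen after seeing the data.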
